A study of Mus musculus with 24 samples.

Results

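Mitochondrial ribosomal protein genes were followed as a family through normal adrenal glands, adrenal glands with a MYCN transgene and neuroblastoma tumors of mice. The members were all genes of the deposited expression table whose symbol starts with Mrpl or Mrps and a number, which gave 78 of 21833 genes, with 49 Mrpl genes named for the large subunit and 29 Mrps genes named for the small subunit. Poly(A)-selected RNA-seq had been run on 24 samples in 4 groups. AG were adrenal glands of mice labelled CRE - (n = 3). AGM were adrenal glands without a tumor labelled MYCN +/-, CRE + (n = 5). TI were neuroblastoma tumors of CRE + mice with the IGF2BP1 transgene (n = 8, of which 1 was +/- and 7 were +/+). TIM were neuroblastoma tumors labelled IMP1/MYCN, CRE + (n = 8), where IMP1 is another name of IGF2BP1. The study's genotyping of these mice showed both transgenes and no wild-type Rosa26 locus, which leaves 1 allele of each transgene. Both transgenes sat at the Rosa26 locus behind a stop cassette that Cre removes. IGF2BP1 was the human gene without its 3' untranslated region, and Cre came from a Dbh promoter, which is active in the sympatho-adrenal lineage, in C57Bl6/N-backcrossed mice. The study placed 7 of 8 IGF2BP1-induced tumors in the lower abdomen and 1 in the adrenal gland, so TI and AG mostly differ in site as well. The columns of the table name the group but not the sample, so a library cannot be tied to its zygosity, tumor site or sequencing run. Libraries are lettered here in the order of their columns within a group (AG a to c, AGM a to e, TI a to h, TIM a to h).

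The mitochondrial ribosome translates the few proteins encoded by mitochondrial DNA, all of them parts of the respiratory chain and the ATP synthase. Its ribosomal RNAs come from mitochondrial DNA, whereas every one of its proteins is encoded in the nucleus, made in the cytosol and imported. Part of the proteins have counterparts in bacterial ribosomes and part were added in mitochondria. The family is widely expressed and is regarded as a readout of mitochondrial biogenesis, which in the adrenal gland serves the cortex, where steroids are made in mitochondria, as well as the medulla. The symbols are not a perfect guide to the particle. Mrps30 and Mrps18a sit in the large subunit, and Mrps36 was found to belong to the 2-oxoglutarate dehydrogenase complex of the citric acid cycle.

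Promoters of the family were read from GRCm39 with GENCODE M39 start sites, and the runs below are shown because they hold a motif counted below or lie between a pair of members whose ratio differed between groups. Each run ends at the base before the start site and reaches back 150 bases, or to the start of a gene that leaves in the other direction where that is nearer. Capitals mark GCGCATGC (the core of the motif of NRF1, a regulator of nuclear genes for mitochondria) and CCGGAAG (the core of the motif of ETS factors such as GABPA), on either strand. The first 4 runs hold the NRF1 core, the next 2 the ETS core alone, and the last is the whole gap between the starts of Mrps11 and Mrpl46, which holds none of the motifs searched.
Mrpl10, chr11:96932263-96932371, plus strand: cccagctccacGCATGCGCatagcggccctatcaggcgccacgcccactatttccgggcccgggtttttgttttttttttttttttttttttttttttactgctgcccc
Mrpl22, chr11:58062325-58062474, plus strand: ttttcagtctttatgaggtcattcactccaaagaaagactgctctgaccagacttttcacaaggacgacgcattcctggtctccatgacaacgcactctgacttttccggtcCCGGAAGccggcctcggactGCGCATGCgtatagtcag
Mrps28, chr3:8988979-8989128, minus strand: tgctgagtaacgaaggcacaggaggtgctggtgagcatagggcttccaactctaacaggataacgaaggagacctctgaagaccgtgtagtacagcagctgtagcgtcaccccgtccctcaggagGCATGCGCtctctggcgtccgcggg
Mrps18b, chr17:36227491-36227640, minus strand: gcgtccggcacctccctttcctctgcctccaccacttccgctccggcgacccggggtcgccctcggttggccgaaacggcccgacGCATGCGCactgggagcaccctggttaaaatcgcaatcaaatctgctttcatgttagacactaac
Mrps22, chr9:98483721-98483870, minus strand: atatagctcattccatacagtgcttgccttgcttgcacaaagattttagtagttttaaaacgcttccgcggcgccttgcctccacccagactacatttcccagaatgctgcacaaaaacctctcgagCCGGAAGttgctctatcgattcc
Mrps34, chr17:25113922-25114071, plus strand: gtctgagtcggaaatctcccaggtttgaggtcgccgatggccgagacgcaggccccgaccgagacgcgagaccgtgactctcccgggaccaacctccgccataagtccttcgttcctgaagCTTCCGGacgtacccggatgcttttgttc
Mrps11, chr7:78432838-78432866, plus strand: ccatgaggcaacgcgggccggcgaggggc

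Over windows from 250 bases before to 50 bases from the start, 24 of 78 members held the ETS core (30.8%), beside 14.8% of the 10160 tested genes with a window. The NRF1 core stood in 7 members (8.97%, beside 4.88%) and AAGATGGC, the core of the YY1 motif, in 6 (7.69%, beside 3.43%). CACGTG, the E-box bound by MYC proteins, stood in 5 (6.41%, beside 10.2%). A match is a description of these letters, and no factor binding was measured.

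All samples gave FPKM, fragments per kilobase of gene scaled to the size of the library. Between 52391 and 95592 reads per library fell on the family, out of 12334076 to 23683176 reads outside the 126 genes that exceeded 1000 FPKM in a library. These read numbers were recovered from the FPKM values and follow the authors' batch correction. The family held no gene above 1000 FPKM. Of the 78 members, 76 passed the expression filter of at least 1 FPKM in at least 3 libraries (47 Mrpl and 29 Mrps), and a tested member had 123 to 3821 reads in a library, with a median of 864. Per the labels AG came from run 1, AGM from run 2 and TIM from runs 2 and 3, while TI had 6 tumors in run 1 and 1 each in runs 2 and 3. Sequencing run and group therefore cannot be told apart wherever AGM or TIM is set against AG, and in TIM vs TI they largely coincide.

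Among the tested members, mean FPKM over 24 libraries ran from 0.861 to 18.98, with a median of 3.88 beside 2.03 for all tested genes, and 56 of 76 lay above the latter. The median was 4.19 for Mrpl and 3.02 for Mrps genes. Mrpl34 stood highest at 18.98 FPKM (12.7 to 31.1 over libraries), followed by Mrpl54 at 16.6 and Mrps21 at 16.6. Mrps35 at 0.903, Mrps22 at 0.870 and Mrpl47 at 0.861 FPKM stood lowest. The ranges of neighbours in this order overlapped widely, as seen in the plot of mean FPKM over libraries. The order also moved with the gene length used, since Mrpl54, whose table length is 825 bases, was 51st by its canonical GENCODE transcript of 4069 bases. That choice, made after seeing the data, does not enter any comparison between groups.

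**Figure D1:**
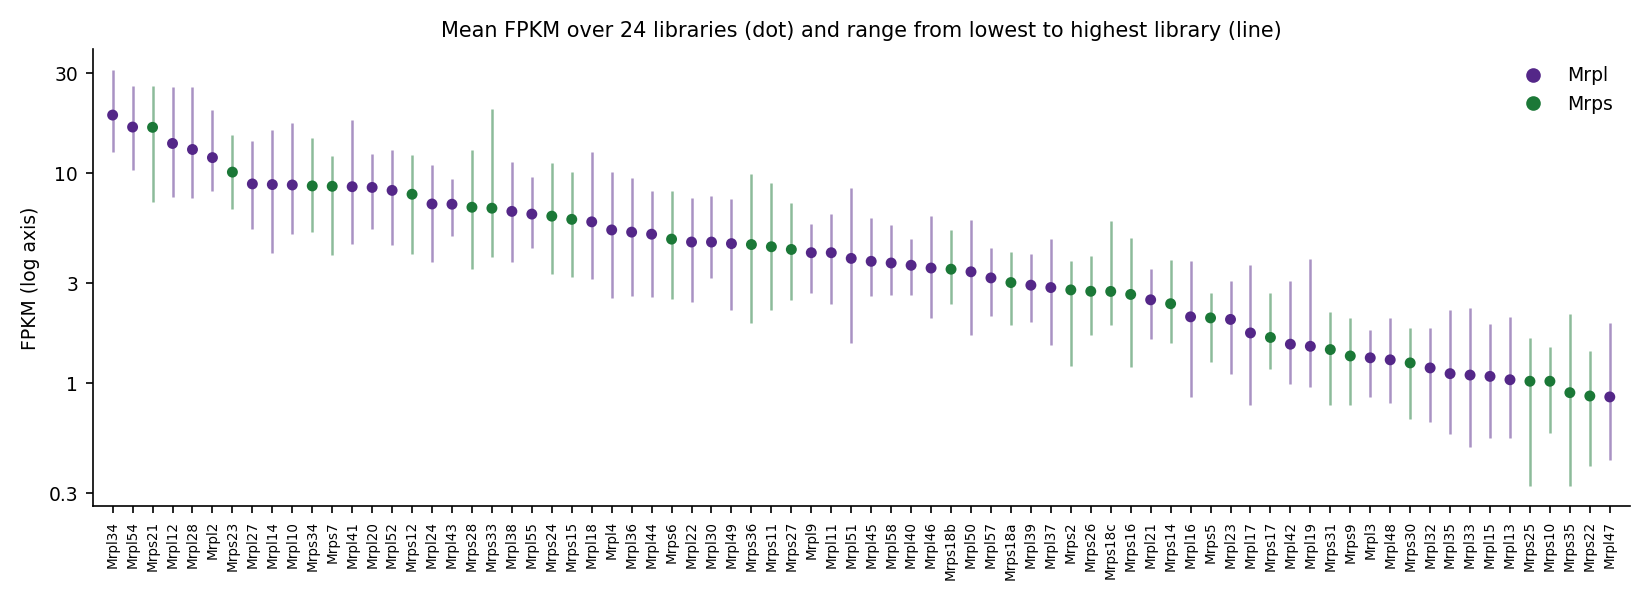
Mean FPKM over 24 libraries (dots, log axis) and the range from the lowest to the highest library (lines) of the 76 tested genes, with Mrpl genes in purple and Mrps genes in green. Levels fell smoothly from 18.98 FPKM for Mrpl34 to 0.861 FPKM for Mrpl47, and the lines of neighbours overlapped.

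The remaining members were Mrpl1 and Mrpl53. Mrpl53 (chr6:83085887-83088572) was listed at 0 in all 24 libraries, where 3 reads would have given 0.0284 to 0.0508 FPKM. Each tested member had at least 123 reads in a library. Whether this 0 reflects expression or the assignment of reads was not tested. Mrpl1 (chr5:96357146-96414586), a large-subunit protein with a bacterial counterpart, was at 0.809, 0.871 and 0.882 FPKM in AG. It was at 0.545, 0.806, 0.713, 0.616 and 0.462 FPKM in AGM, from 0.430 to 0.707 in TI (median 0.503) and from 0.230 to 0.708 in TIM (median 0.490). All AG libraries lay above all others, where TI lay wholly below AG in 27.3% of all tested genes, TIM in 24.7% and AGM in 32.5%. The difference from AG was -0.338 FPKM in TI and -0.371 FPKM in TIM (exact permutation test, two-sided, p = 0.00606 each, the smallest that these group sizes allow, adjusted p = 0.0152 over 5 comparisons). It was -0.226 FPKM in AGM (exact p = 0.0357, adjusted p = 0.0595).

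The level of the family as a whole was described per library on the log2(FPKM + 1) scale, as the median over 76 members of the distance from each member's own mean across libraries. It was 0.05, 0.13 and 0.14 in AG and 0.11, 0.01, 0.25, 0.09 and 0.30 in AGM. In TI it ran from -0.25 to 0.14 (median -0.09) and in TIM from -0.29 to 0.37 (median -0.06). The adrenal glands of both kinds were all above 0, and 5 of 8 TI and 6 of 8 TIM tumors were below. The medians over all tested genes lay between -0.15 and -0.01 in every library. Within groups, the members spread about as much as tested genes of the same range of levels. Their median SD on the log2 scale was 0.06 in AG (0.06 for the 7815 genes in that range), 0.17 in AGM (0.14), 0.24 in TI (0.25) and 0.28 in TIM (0.32).

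**Figure D2:**
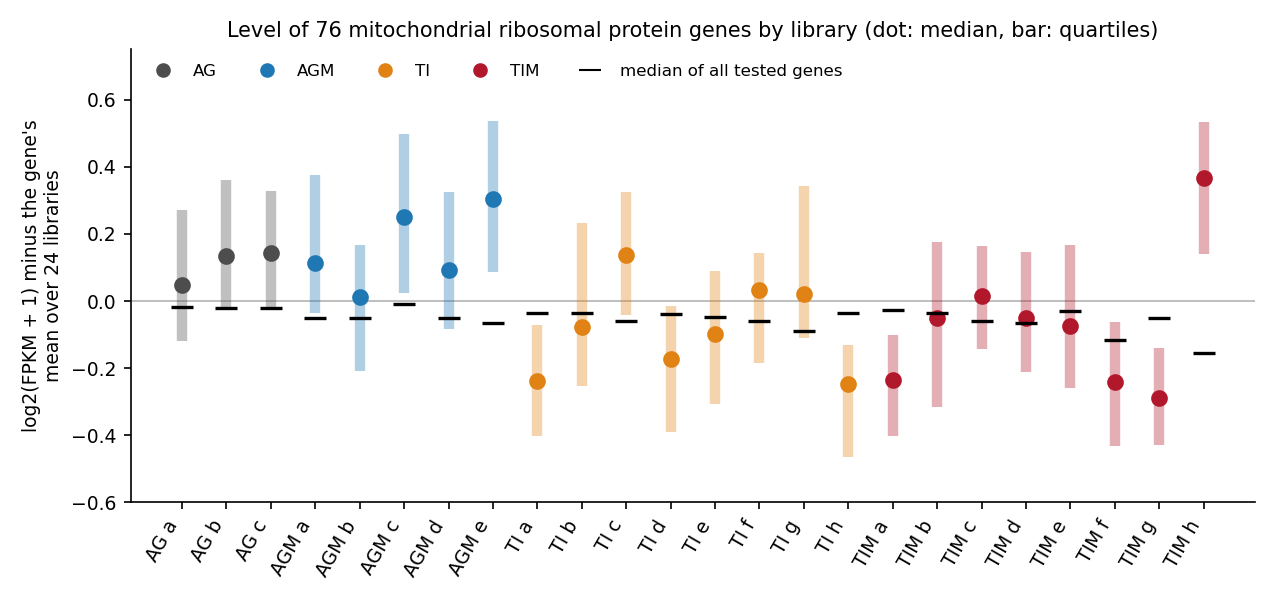
Median (dots) and quartiles (bars) over 76 genes of log2(FPKM + 1) minus the gene's mean over 24 libraries, for each library, with the median of all tested genes as black dashes. The 8 adrenal gland libraries lie between 0.01 and 0.30, and TIM h at 0.37 is the highest of all libraries although the median of all tested genes there is -0.15.

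TI tumors were compared with AG to ask how the family differs between IGF2BP1-driven tumors and the normal gland. In TI, 24 of 76 members were lower and 5 higher than in AG (limma, FDR below 0.05). The members lower were 31.6%, near the 27.7% of all tested genes, and those higher 6.58% beside 24.6%. The median log2 fold change was -0.15, against 0.00 over all tested genes, and 57 of 76 members were below 0, beside 51.4% of all genes. By subunit name, 13 of 47 Mrpl genes were lower (3 higher) and 11 of 29 Mrps genes lower (2 higher), and the medians were -0.14 and -0.16. Of the 24 lower calls, 18 held when any library of the comparison was left out. Of the 5 higher calls only that of Mrpl45 did. The count of members higher fell to 1 without AG a, to 2 without AG b or without AG c and to 3 without TI g.

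**Figure D3:**
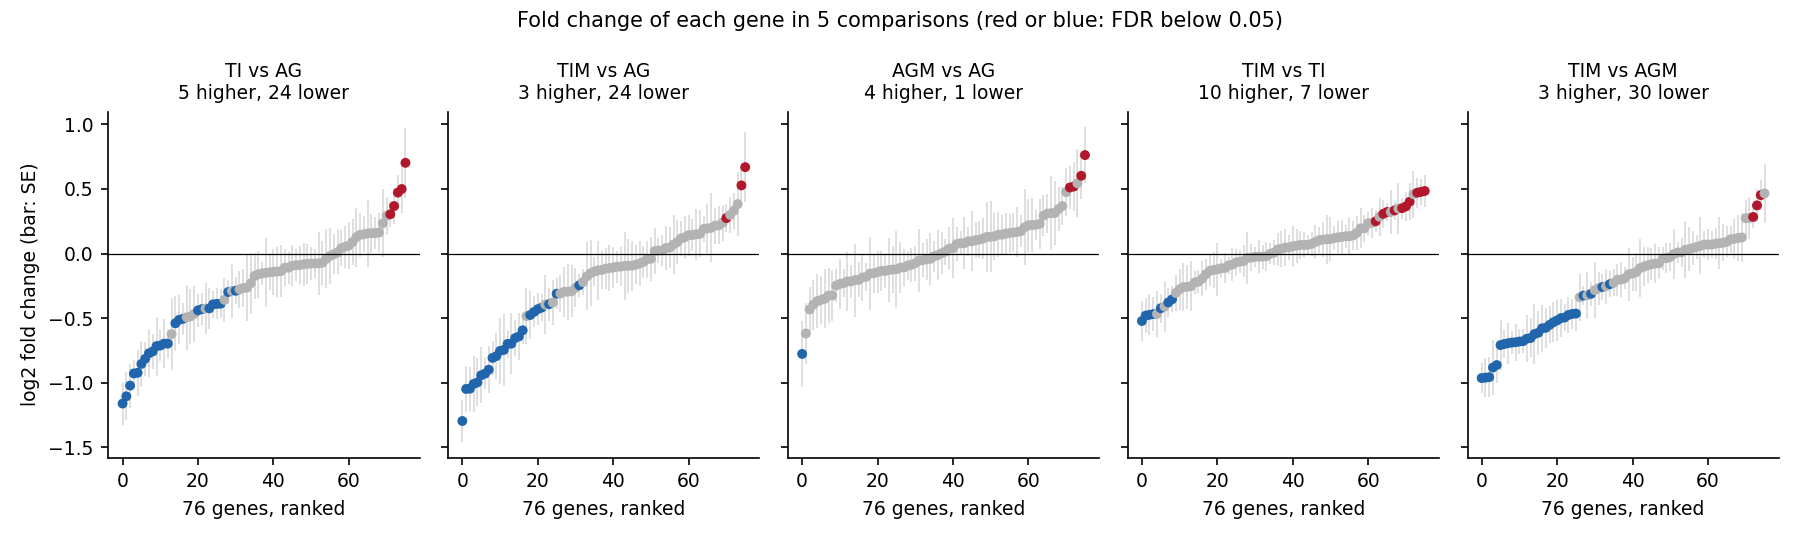
Log2 fold change (dots) with its standard error (bars) for the 76 genes, ranked within each of 5 comparisons. Red and blue mark an FDR below 0.05 (limma). The 24 lower members in TI vs AG and in TIM vs AG reach -1.16 and -1.30, and AGM vs AG has 4 higher and 1 lower.

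The largest fall in TI belonged to Mrps11 (chr7:78432867-78442739), a small-subunit protein with a bacterial counterpart at the platform of the subunit. It stood at 8.74, 9.01 and 8.11 FPKM in AG and ran from 2.24 to 4.59 FPKM in TI (median 3.29). The groups did not overlap, and the log2 fold change was -1.16 ± 0.16 (SE; limma FDR 2.82e-06). Mrpl4 (chr9:20914018-20920537), which lines the exit tunnel for the new protein, was at 8.60, 8.52 and 8.99 FPKM in AG and from 2.55 to 6.25 in TI (log2 fold change -1.11 ± 0.19, limma FDR 2.91e-05). Mrps24, the counterpart of a universal protein at the entry of the mRNA channel, was at 9.82, 11.2 and 11.2 FPKM in AG and from 3.33 to 7.08 in TI (log2 fold change -1.02, limma FDR 2.73e-05). All TI tumors lay below all AG glands for these genes as well, as in 24 members (31.6%), beside 27.3% of all tested genes. Mrpl16, near the tRNA sites of the large subunit, stood at 3.12 ± 0.108 FPKM in AG (SD, n = 3) and 1.17 ± 0.212 in TI (SD, n = 8), and its fold change was -0.93 on the log2 scale (limma FDR 8.87e-08).

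The members higher in TI were Mrps33, Mrpl30, Mrpl45, Mrpl11 and Mrps5. Mrpl45 (chr11:97206542-97232865) holds the ribosome at the inner membrane, where the new proteins are inserted. It stood at 2.96, 3.11 and 3.15 FPKM in AG and ran from 3.91 to 6.13 in TI (median 4.67), with every tumor above every gland. Its log2 fold change was 0.47 ± 0.14 (SE; limma FDR 0.00554). Tumors wholly above glands were found for 3 members (3.95%), beside 23.8% of all tested genes. Mrps33, a small-subunit protein without a bacterial counterpart, stood at 4.22 ± 0.179 FPKM in AG and 7.66 ± 1.82 in TI (log2 fold change 0.70, limma FDR 0.0341). Its call did not hold after dropping AG a, AG b, AG c, TI c or TI g singly, nor by limma-voom. The call of Mrpl30 (log2 fold change 0.50) was lost without AG a, AG c or TI g, that of Mrpl11 (0.37) without AG a, AG b, AG c or TI b, and that of Mrps5 (0.30) without AG a or AG b.

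TIM tumors were compared with AG for the tumors in which MYCN is added. Here 24 members were lower (31.6%, beside 28.5% of all tested genes) and 3 higher (3.95%, beside 22.5%). The median was -0.12 beside 0.00 over all genes, and 51 of 76 members were below 0. The largest falls were those of Mrps11 (2.42 to 4.28 FPKM, median 2.76, log2 fold change -1.30 ± 0.16, limma FDR 6.05e-07), Mrpl36 (-1.05, limma FDR 3.75e-05), Mrps24 (-1.05, limma FDR 2.11e-05) and Mrpl24 (-1.01, limma FDR 0.0004). Mrpl36 is a small large-subunit protein with a bacterial counterpart. It was at 8.84 ± 0.626 FPKM in AG and 3.81 ± 0.861 in TIM (SD, n = 8). Mrpl24 was at 10.6 ± 0.488 FPKM in AG (SD, n = 3) and from 3.77 to 8.91 in TIM, where TIM h had the highest value. GENCODE places exons of genes of the other strand over 41.2% of its exon bases, mostly Mettl25b, and how the counting treated strand is not stated.

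Higher in TIM than in AG were Mrps33, Mrpl19 and Mrps31. Mrpl19, a large-subunit protein at the contact with the small subunit, was at 1.02, 1.03 and 1.07 FPKM in AG and ran from 1.26 to 3.89 in TIM (median 1.89). The groups did not overlap, with TIM above AG as in 2 members (2.63%), beside 17.8% of all tested genes. The log2 fold change of Mrpl19 was 0.53 (limma FDR 0.00546), and its call held without any library. Those of Mrps33 (0.67, limma FDR 0.044) and Mrps31 (0.27, limma FDR 0.0392) did not, and the count of members higher was 1 without AG a, AG b, AG c, TIM a or TIM b. It was also 1 by limma-voom and with FPKM recomputed outside the genes above 1000 FPKM. The count of members lower rose to 29 without TIM h, the tumor with the highest level of the family.

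Counted against the same AG libraries, 17 members were lower in both tumor groups (22.4%, beside 24% of all tested genes) and 1, Mrps33, was higher in both (1.32%, beside 16.3%). Both comparisons share the AG libraries. The 17 were Mrpl4, Mrpl9, Mrpl10, Mrpl16, Mrpl32, Mrpl33, Mrpl36, Mrpl37, Mrpl49, Mrps9, Mrps11, Mrps14, Mrps22, Mrps24, Mrps27, Mrps34 and Mrps36, and all but Mrps9 and Mrps22 were lower in TIM than in AGM as well. At the other end, 28 of 76 members (36.8%, beside 16.1% of all tested genes) passed the test in none of the 5 comparisons, among them Mrpl12, Mrpl41 and the paralogs Mrps18a, Mrps18b and Mrps18c.

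AGM was compared with AG to see how the gland with MYCN differs where no tumor has formed. Only 4 members were higher (5.26%, beside 14.6% of all tested genes) and 1 lower (1.32%, beside 14%), and the median was 0.01 beside 0.00. Higher were Mrps16, Mrpl44, Mrpl2 and Mrpl17. Mrps16, whose loss causes a respiratory chain deficiency in people, stood at 2.03, 2.14 and 2.19 FPKM in AG and 4.33 ± 0.703 in AGM (3.23 to 4.94, log2 fold change 0.76, limma FDR 0.0109). Mrpl44, a large-subunit protein with an RNase III-like fold, stood at 4.70 ± 0.223 FPKM in AG and 7.67 ± 0.833 in AGM (0.60, limma FDR 0.0158). For both genes all AGM libraries lay above all AG libraries, as in 14 members (18.4%), beside 29.4% of all tested genes. Mrpl18, which in bacteria binds the 5S RNA, was at 8.11 ± 0.687 FPKM in AG and 4.33 ± 0.555 in AGM (log2 fold change -0.78, limma FDR 0.0266).

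The AGM counts depend on how the libraries are scaled and which libraries set the spread. With FPKM recomputed on reads outside the genes above 1000 FPKM, the median of all tested genes moved to -0.41 in AGM vs AG and that of the members to -0.43, and 23 members were lower (30.3%, beside 35.7% of all tested genes) and 0 higher (beside 9.58%; limma, with 0 higher also at an unadjusted p below 0.05 and by limma-voom). Relative to all genes, the family therefore moved by -0.02 with that scaling and by 0.01 with the deposited values. With only AG and AGM in the fit, 14 members were higher (18.4%, beside 29.2% of all tested genes) and 12 lower (15.8%, beside 32.9%). The count of members higher fell to 1 without AG c and to 2 without AG a, AG b, AGM c or AGM e, and the call of Mrpl18 did not hold after dropping AG a, AG b or AG c singly.

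TIM and AGM were compared because both carry MYCN and Cre. The study culled mice with MYCN alone at a fixed age, later than the median survival of mice with both transgenes. Age, the IGF2BP1 transgene and the presence of a tumor therefore cannot be told apart here. In TIM, 30 members were lower (39.5%, beside 33.4% of all tested genes) and 3 higher (3.95%, beside 31.9%). The median was -0.20 against 0.03 over all genes. With recomputed FPKM the split was 12 lower (15.8%, beside 26.1% of all tested genes) and 9 higher (11.8%, beside 42.1%), and the median of all genes moved to 0.31 and that of the members to 0.06. The distance of the family from all genes was -0.23 with the deposited values and -0.25 with the recomputed ones. The largest falls were those of Mrpl10, Mrps36, Mrpl4 (-0.96, limma FDR 1.54e-05) and Mrpl14 (-0.88, limma FDR 0.00109). Mrpl10, the base of the stalk that recruits elongation factors, was at 14.7, 12.2, 14.7, 12.7 and 17.5 FPKM in AGM a to e and ran from 5.75 to 9.48 in TIM (median 6.48), without overlap. Its log2 fold change was -0.96 ± 0.12 (SE; limma FDR 2.16e-07). TIM lay wholly below AGM in 11 members (14.5%), beside 20.8% of all tested genes. Mrps36, the protein of the 2-oxoglutarate dehydrogenase complex, was at 7.64 ± 1.69 FPKM in AGM and 3.41 ± 0.616 in TIM (-0.96, limma FDR 8.12e-06), and at 6.66 ± 1.29 in AG and 3.07 ± 0.806 in TI. GENCODE names 3 pseudogenes of it, so its reads may be shared. Mrpl11, at the base of the stalk, was higher at 4.55 ± 0.849 FPKM in TIM than at 3.04 ± 0.449 in AGM (0.45, limma FDR 0.00188), as were Mrpl19 (0.37) and Mrps5 (0.28).

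TIM was compared with TI to set tumors with MYCN against tumors without it. The number of IGF2BP1 alleles differs along with MYCN, since 7 of 8 TI tumors were +/+. The study found tumors of mice with both transgenes in adrenal glands, in the abdomen and along the spine. Median survival of these mice was shorter than that of IGF2BP1 +/+ mice. The parts of MYCN, allele number, tumor site and age cannot be told apart. Members higher in TIM were 10 (13.2%, beside 10% of all tested genes), and 7 were lower (9.21%, beside 12.9%), with a median of 0.04 beside 0.00. With recomputed FPKM, which moved the median of all genes to -0.12, 6 were higher (beside 8.02% of all tested genes) and 12 lower (beside 18.5%). With only the 16 tumors in the fit, 6 were higher (beside 5.59%) and 3 lower (beside 7.28%). Highest by fold change were Mrpl44 (3.48 ± 0.603 FPKM in TI, 5.37 ± 1.52 in TIM, log2 fold change 0.48, limma FDR 0.00806), Mrps35 (0.48, limma FDR 0.00252), Mrpl17 (0.47, limma FDR 0.00639) and Mrpl22 (0.40, limma FDR 0.0444). The call of Mrpl44 was lost by limma-voom. The call of Mrpl22 did not hold after dropping any 1 of TI a to e, TI g, TI h, TIM b, TIM d, TIM e or TIM h, nor in limma-voom and recomputed FPKM. Mrps30 ran from 0.672 to 1.14 FPKM in TI and from 1.09 to 1.84 in TIM, where AG stood at 1.38 ± 0.0801 (TIM vs TI 0.32 ± 0.07, limma FDR 0.0024), and the ranges of the tumor groups overlapped.

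Lower in TIM than in TI were Mrpl24 (-0.52, limma FDR 0.0209), Mrps7 (-0.48, limma FDR 0.014), Mrps15 (-0.47, limma FDR 0.0358), Mrpl27 (-0.47, limma FDR 0.013), Mrps23, Mrpl58 and Mrpl45. With only the 16 tumors in the fit, the calls of Mrpl24, Mrps15, Mrpl58 and Mrpl45 were lost. The count of members lower rose to 11 without TIM h, and the call of Mrps15 did not hold after dropping any 1 of TI b to e, TI g, TIM a, TIM b, TIM d, TIM e or TIM g. Mrps7 (chr11:115494636-115498871), which starts the folding of the small-subunit RNA in bacteria, ran from 7.31 to 12.1 FPKM in TI (median 8.86) and from 4.08 to 9.60 in TIM (median 6.40). Exons of other genes, mostly Mif4gd on the other strand, cover 57.8% of its exon bases in GENCODE. Mrpl58, a hydrolase that frees the chain from stalled ribosomes, had a log2 fold change of -0.38 (limma FDR 0.0173).

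**Figure D4:**
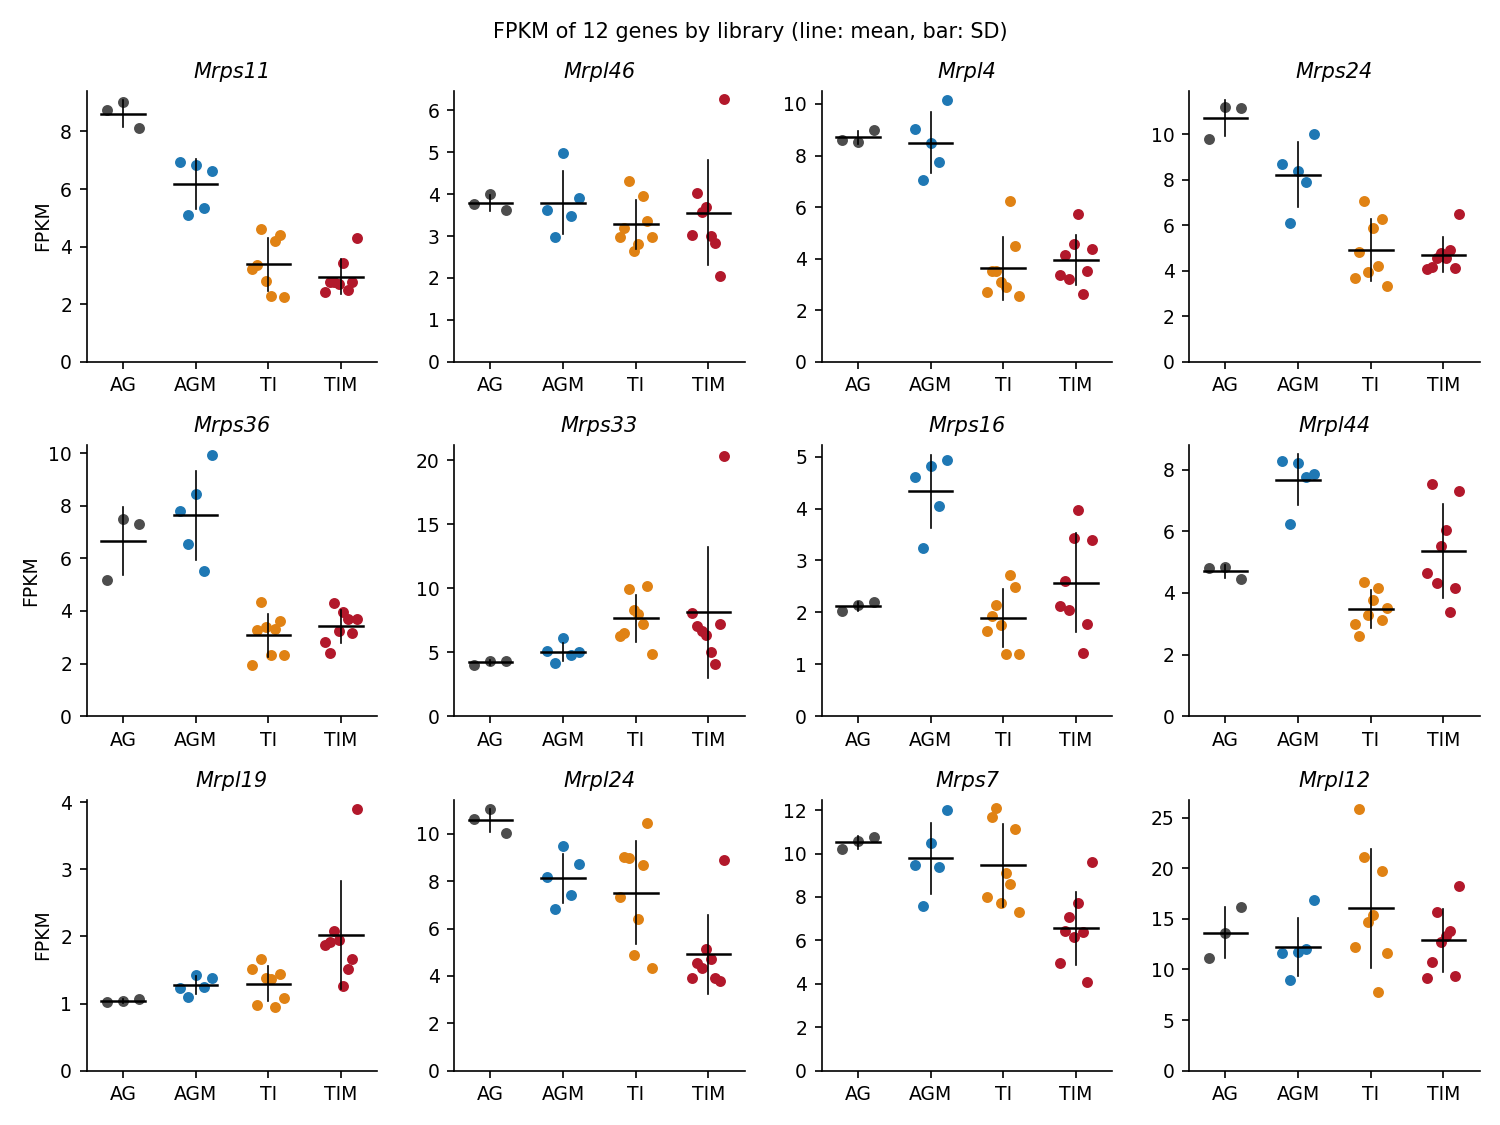
FPKM of 12 genes in every library of the 4 groups, with the group mean (line) and SD (bar). Mrps11 falls from 8.62 in AG to 3.39 in TI and 2.95 in TIM while Mrpl46 overlaps among all groups, and TIM h is the single high point of Mrps33 at 20.3 FPKM.

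Of the 7 members lower in TIM than in TI, Mrps7, Mrps23, Mrpl27, Mrpl45 and Mrpl58 lie on chromosome 11. Of the 11 tested members there 5 were lower and 1, Mrpl22, was higher, with a median of -0.25. All 928 tested genes of that chromosome had a median of -0.17, with 28.2% lower and 6.03% higher. On chromosome 6, where 24.8% of 516 tested genes were higher in TIM and the median was 0.19, 2 of 6 members were higher (Mrps35 and Mrpl19) and none was lower. Of the 65 members off chromosome 11, 2 were lower (3.08%, beside 11.4% of the 9232 tested genes placed there), Mrpl24 on chromosome 3 and Mrps15 on chromosome 4. Chromosome 17 had 24% of 516 genes lower and none of its 8 members called. In single tumors, the members of chromosome 11 stood highest in TI b at 0.51 above their mean over tumors on the log2 scale, beside 0.17 for all tested genes there, and lowest in TIM g at -0.43, beside -0.11.

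**Figure D5:**
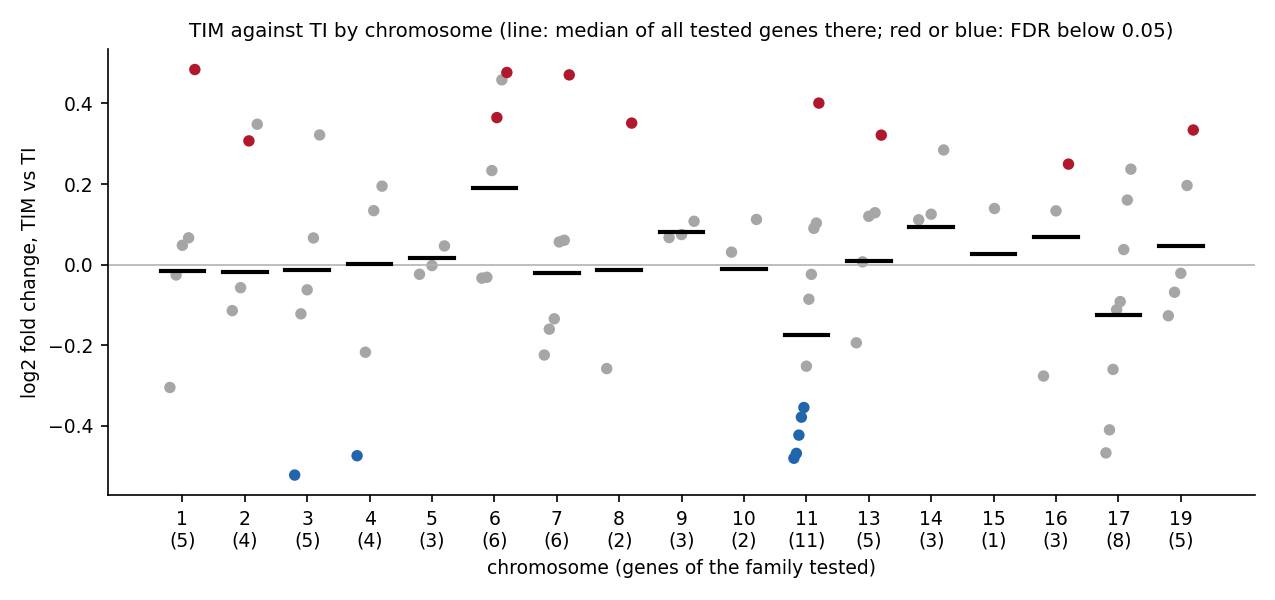
Log2 fold change of each tested gene of the family in TIM vs TI by chromosome, with the median of all tested genes of that chromosome as a black line and an FDR below 0.05 in red or blue. The 5 lower genes on chromosome 11 stand beside a chromosome median of -0.17, and the chromosome 6 median is 0.19.

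Single tumors differed more in the level of the family than the tumor groups did. Against the mean over the 16 tumors, TIM h stood 0.40 above on the log2 scale, TI c 0.20 and TI g 0.12, and TI h stood lowest at -0.19, with TIM f at -0.18 and TIM g at -0.18. TIM h held the highest value of all tumors for 32 of 76 members (42.1%), beside 9.46% of all tested genes, and TI c for 13 (17.1%, beside 10.3%). TI h held the lowest value for 14 members (18.4%, beside 2.25%) and TI d for 11 (14.5%, beside 4.32%). TIM h had Mrps33 at 20.3 FPKM, where the next TIM tumor had 8.09, and Mrpl19 at 3.89, where the next had 2.09. It also had fewer genes at 1 FPKM or more than any other library (6287) and, of all TIM tumors, the lowest summed FPKM of the 5 endothelial markers (1.15) and of the 5 Schwann and sustentacular cell markers (0.360). The part of these in its level was not tested. TIM e, with 23.4% of all highest and 18.3% of all lowest values among the tumors, held the highest value for 7 members.

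Further members were followed for their roles. Mrps22, which in people is a cause of cardiomyopathy and respiratory chain deficiency, had log2 fold changes against AG of -0.51 (limma FDR 0.0017) for the TI tumors and -0.43 (limma FDR 0.00624) for the TIM tumors. Mrps34, needed for a stable small subunit, had -0.51 (limma FDR 0.0266) and -0.48 (limma FDR 0.04). Its values were 10.4 ± 0.217 FPKM in AG, 12.4 ± 1.87 in AGM, 7.08 ± 1.28 in TI and 7.45 ± 2.16 in TIM, and neither call held when 1 of the AG libraries, whichever, was dropped. Mrps12, of the decoding site, had -0.54 (limma FDR 0.0387) for TI and -0.48 (limma FDR 0.0644) for TIM, and Mrpl3, at the peptidyl transferase site, had -0.29 (limma FDR 0.0226) for TI and -0.22 (limma FDR 0.0786) for TIM. The calls in TI were lost for Mrpl3 without AG b or AG c, and for Mrps12 without AG a, AG b, AG c, TI a, TI e, TI f or TI h. Mrpl12, the mobile part of the stalk that also binds the mitochondrial RNA polymerase, varied most within TI of all members (SD 0.52 on the log2 scale, 7.75 to 25.9 FPKM), with a log2 fold change of 0.16 ± 0.26 (limma FDR 0.668). Mrpl41, which binds BCL2 and stabilises p53, varied most within TIM (SD 0.62), with 0.20 ± 0.27 against AG (limma FDR 0.559). The paralogs Mrps18a, Mrps18b and Mrps18c, of which Mrps18a sits in the large subunit, had log2 fold changes of -0.01, -0.09 and -0.14 in TI and -0.12, 0.14 and -0.09 in TIM, none past the threshold.

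Mrps11 and Mrpl46, both of the family, start 30 bases apart on opposite strands, and the run between their starts is printed above. Mrpl46 stood at 3.76, 3.99 and 3.62 FPKM in AG, from 2.64 to 4.33 in TI and from 2.06 to 6.27 in TIM, and its log2 fold changes against AG were -0.17 ± 0.18 (SE; limma FDR 0.442) for TI and -0.11 ± 0.18 (limma FDR 0.623) for TIM. The log2 ratio of Mrps11 to Mrpl46 was 1.01 ± 0.0259 in AG (SD, n = 3), 0.58 ± 0.148 in AGM, 0.02 ± 0.189 in TI and -0.18 ± 0.273 in TIM. The difference from AG was -0.99 in TI and -1.18 in TIM (exact permutation test, two-sided, p = 0.00606 each, the smallest possible with 3 and 8 libraries, adjusted p = 0.014 over 30 tests), and TIM differed from AGM by -0.76 (exact p = 0.000777, adjusted p = 0.00777). These tests were chosen after the values had been seen. They largely repeat the fall of Mrps11, which was the largest of all members in both comparisons with AG.

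Such head-to-head starts, within 1000 bases, were found for 13 pairs, 10 of them with both genes tested. These ratio tests were chosen after the values had been seen, and 21 of 30 had an adjusted p below 0.05, with 8 of 10 in TI vs AG, 5 of 10 in TIM vs AG and 8 of 10 in TIM vs AGM. Ratios of other gene pairs were not tested, so no share over all pairs stands beside these counts. Of single tested genes, 27.7% were lower and 24.6% higher in TI vs AG (limma, FDR below 0.05). The largest difference was that of Mrpl51 and Ncapd2, a condensin subunit, whose ratio fell by 2.34 in TI vs AG (exact permutation p = 0.00606, adjusted p = 0.014) and by 2.20 in TIM vs AGM (exact p = 0.00233, adjusted p = 0.014). In TIM vs AG their difference was -1.525 (exact permutation p = 0.0485, adjusted p = 0.0661). Ncapd2 was higher in TI (2.26, limma FDR 0.00054), where Mrpl51 had -0.08 (limma FDR 0.854). In TI vs AG the ratio also differed for Mrpl41 and Pnpla7 by 0.83 (exact permutation p = 0.00606, adjusted p = 0.014), for Mrpl54 and Apba3 by 0.48 and for Mrps12 and Sars2 by -0.79 (exact p = 0.0182, adjusted p = 0.0321 each). Mrpl49 and Fau, the gene of a cytosolic ribosomal protein, start 52 bases apart. Mrpl49 was lower in TI (-0.77, limma FDR 0.00123) where Fau had 0.67 (limma FDR 0.0702), and the log2 ratio fell by 1.44 in TI (exact permutation p = 0.0242, adjusted p = 0.0373) and by 1.49 in TIM (exact p = 0.00606, adjusted p = 0.014). Mrpl14 and Tmem63b start 7 bases apart, and their ratio fell by 1.52 in TI (exact permutation p = 0.00606, adjusted p = 0.014), with Tmem63b higher (1.03, limma FDR 0.000171). Mrpl43 shares its start region with Twnk, the mitochondrial DNA helicase, at 56 bases. Twnk was lower in TI (-0.69, limma FDR 0.000423) where Mrpl43 had 0.04 (limma FDR 0.859), and the ratio was higher by 0.73 (exact permutation p = 0.00606, adjusted p = 0.014). The ratio of Mrpl32 to Psma2, a proteasome subunit, differed from AG by -0.10 in TI (exact permutation p = 0.491, adjusted p = 0.526) and from AGM by -0.24 in TIM (exact p = 0.000777, adjusted p = 0.00777).

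Of the 7 members with the NRF1 core, Mrpl9, Mrpl10, Mrpl22, Mrpl32, Mrpl33 and Mrps28 were lower in TI than in AG, and Mrps18b had -0.09 (limma FDR 0.668). Their median was -0.70, beside -0.14 for the 69 tested members without it, of which 18 were lower. In TIM vs AG 4 of the 7 were lower, with a median of -0.39 beside -0.11, and in TIM vs AGM 6 of 7, with -0.52 beside -0.14. Of the 23 tested members with the ETS core 8 were lower in TI, with a median of -0.15, the same as for the 53 without it (-0.15, 16 lower). With the YY1 core 4 of 6 were lower in TI (median -0.49), and with the E-box 1 of 5 (median -0.14). These splits were made with the fold changes known and are descriptions. Over all tested genes, 27.7% were lower in TI vs AG, 28.5% in TIM vs AG and 33.4% in TIM vs AGM. Calls of genes outside the family with these cores were not counted, so no trait of the family can be read from the splits.

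The rest of the mitochondrial translation system was taken from lists, where counts are of tested genes with a limma FDR below 0.05. Beside these counts, 27.7% of all tested genes were lower and 24.6% higher in TI vs AG. In TIM vs AG the shares were 28.5% lower and 22.5% higher. Ribosomal proteins outside the naming rule were listed with Oxa1l, the insertase to which the ribosome docks. This list counted 0 of 6 higher and 2 lower in TI vs AG, and 1 lower in TIM vs AG. Aurkaip1, a small-subunit protein, was lower in both (-0.91, limma FDR 0.00165, and -0.80, limma FDR 0.00497). The list of translation factors also holds stabilisers of mitochondrial mRNA, such as Lrpprc and Slirp. It counted 6 of 10 lower in TI and 7 of 10 in TIM, with none higher and medians of -0.47 and -0.62. The largest fall was that of Tufm, the elongation factor that brings tRNAs (-1.33 ± 0.21 in both, limma FDR 1.14e-05). Of 13 aminoacyl-tRNA synthetases and their partners 6 were lower in each tumor group, led by Iars2 (-1.05 and -0.87), and 1, Gatc, was higher in TI (0.37). Of 17 assembly factors 5 were lower in TI and 4 in TIM, led by Mpv17l2 (-2.18 and -2.14), with 1 and 2 higher. Dhx30 (0.33) was the highest in TI and Rpusd3 (0.67) in TIM.

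Genes for mitochondrial DNA upkeep and transcription counted 5 of 8 lower in TI and 6 in TIM, none higher, led by Top1mt (-1.44 and -1.32). The shares of all tested genes lower than in AG were 27.7% in TI and 28.5% in TIM. Among 17 genes of import and general content 8 were lower in each tumor group, with 1 and 3 higher. Hspd1, the chaperonin of the matrix, had the largest fall (-2.41, limma FDR 4.81e-07, and -2.11, limma FDR 3.33e-06), and Tomm20, a receptor of the outer membrane, the largest rise (0.59 and 0.78). In TIM vs TI these lists counted at most 5 genes in either direction, where 10% of all tested genes were higher and 12.9% lower. There, Slirp was the 1 gene of the translation factor list that was lower (-0.57, limma FDR 0.00683). Timm23 was the highest of the import list (0.97, limma FDR 0.000296) and Timm44 the lowest (-0.35, limma FDR 0.00391). Rpusd3 was the highest (0.50, limma FDR 0.0295) and Eral1 the lowest (-0.48, limma FDR 0.00755) of the assembly list. Yars2 led the synthetases (0.31, limma FDR 0.00606), and Polg was the 1 gene of mitochondrial DNA upkeep lower (-0.23, limma FDR 0.0194). In AGM vs AG, Lrpprc, Tfb2m and Hspd1 led the 2 of 10, 2 of 8 and 5 of 17 genes lower of their lists (-0.61, -0.74 and -0.998), and Mrm2 (0.41) was the 1 assembly gene higher. With recomputed FPKM these counts rose to 7 of 10, 5 of 8 and 10 of 17 lower, the synthetases went from 0 to 6 of 13 lower, and the assembly list had 4 of 17 lower and 0 higher. With limma-voom they were 7, 7, 10, 6 and 5 lower and 0 higher. The share of all tested genes lower in AGM vs AG also rose, from 14% to 35.7% with either scaling. With recomputed FPKM, the list medians minus that of all genes were -0.29 for translation factors, -0.31 for mitochondrial DNA and -0.27 for import. They were -0.09 for the synthetases and 0.23 for assembly. In TIM vs AGM, 7 of 10 translation factors were lower, beside 33.4% of all tested genes, and Tufm had -1.07.

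Markers of some other cell types differed between the groups as well. For their counts, the shares of all tested genes were 27.7% lower and 24.6% higher in TI vs AG. They were 28.5% lower and 22.5% higher in TIM vs AG, 33.4% lower in TIM vs AGM and 14.6% higher in AGM vs AG. The summed FPKM of 11 adrenal cortex markers lay between 723 and 762 for AG and between 4919 and 6488 for AGM, against 1.24 to 21.3 for TI and 1.79 to 14.8 for TIM, and 10 of 11 were lower in each tumor group than in AG. That of 8 adipocyte markers lay between 98.0 and 821 for AG and between 349 and 1321 for AGM, against 0.182 to 2.48 for TI and 0.0591 to 67.1 for TIM, all 8 lower in both. That of 10 sympatho-adrenal markers lay between 141 and 203 for AG and between 1284 and 2160 for AGM, against 236 to 1806 for TI and 228 to 4692 for TIM, with 6 higher in each tumor group. Of 5 endothelial markers 3 were lower in TI and 5 in TIM against AG, and 5 in TIM against AGM. The remaining lists had few or mixed calls against AG. Of 4 tested macrophage markers 1 was lower in TI and 2 in TIM. Of 5 Schwann and sustentacular cell markers 2 were lower in TI and 1 in TIM. Of 5 fibroblast and capsule markers 1 was higher and 2 were lower in each tumor group. No marker was at 0 in all libraries of a group. In bulk tissue, fewer cells of a type and less RNA per cell cannot be told apart, and the part of these shifts in the levels of the family was not tested. The levels of abundant markers in AGM and TIM are uncertain, since recovered reads summed to between 58530450 and 1170004708 per library in these groups against 12468968 to 21353172 in AG and TI, with the excess in genes above 1000 FPKM. In AGM vs AG 9 of 11 cortex markers were higher, and 7 with recomputed FPKM. Without the 3 cortex markers above 1000 FPKM, a sum chosen after seeing the data, the range was 347 to 354 for AG and 1639 to 2328 for AGM.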

How the data were processed

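Poly(A) RNA-seq of 24 samples was analysed from the table of FPKM that the authors deposited. Per the labels and the study's methods, reads were trimmed (cutadapt 2.8), aligned to mm39 (HISAT2 2.1.0, SAMtools 1.10), counted (featureCounts 2.0.0), corrected for batch (ComBat-seq) and scaled by TMM in edgeR 3.40. The annotation and strand setting of the counting are not given in the sources used here. Batch correction replaces counts by quantiles of a model, so values are not raw depth. Columns gave the group but no sample number. Replicates are separate samples per the labels. The authors' fold changes and p-values in the table were not used.

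Values times gene length were whole multiples of 1 step in 100% of entries (within 0.1), which returned reads. limma 3.58.1 (R 4.3.3, lmFit, eBayes with trend) was fitted over all 24 libraries to log2(FPKM + 1) of 10171 genes, namely those that reached 1 FPKM in 3 libraries or more, with Benjamini-Hochberg adjustment over all tested genes and an FDR below 0.05. This scale understates the change of low genes. The code was tested on simulated reads, with the same spread setting for all genes and groups. In TI vs AG it recovered 95 of 100 genes changed by 1 on the log2 scale, and 6.7% of its calls were false. The simulation does not cover the difference in spread between the groups. Members, lists and motifs were chosen with earlier results of these data known. Named were a role panel, the 4 largest rises and falls per comparison past the threshold, the 3 highest and lowest levels, every member below the filter, and the extremes of each list. Others were named after their values were seen. Positions come from GENCODE M39 on GRCm39 (mm39).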

Additional observations from a re-analysis of the deposited data

Results flagged for a closer look

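In groups of 5 or 8 libraries, 129 sets of values (41 named members and Mrpl1 in AGM, TI and TIM, and the median level of the family) were searched for a highest or lowest library far from the others, and 17 were found. For a single set, chance gives about 1 in 20. The sets share libraries, and many members were named for their values, so the count cannot be set against that rate. Of the 17 found, 11 were highs of TIM h. They were 6.39 FPKM for Mrpl11, 13.0 for Mrpl14, 3.89 for Mrpl19, 8.91 for Mrpl24, 11.9 for Mrpl27, 6.76 for Mrpl30, 5.19 for Mrpl58, 5.90 for Mrps18c, 6.5 for Mrps24 and 20.3 for Mrps33, and the median level of the family at 0.365 on the log2 scale. Leaving out TIM h changed the count of members lower from 24 to 29 in TIM vs AG, from 7 to 11 in TIM vs TI and from 30 to 36 in TIM vs AGM.

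The others stood in 5 libraries. TIM e had Mrpl10 at 9.48 FPKM, its highest in TIM. TI f had Mrpl22 at 5.26 FPKM and Mrps18b at 3.86 FPKM. TI c had Mrpl1 at 0.707 FPKM, its highest in TI. AGM e had Mrpl34 at 23.6 FPKM and AGM b had Mrpl44 at 6.24 FPKM, its lowest in AGM.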

How the results depend on the processing

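No paired analysis was possible because the columns carry no replicate number that matches the sample titles. Counts of members higher and lower were recomputed under each alternative. With FPKM recomputed outside the genes above 1000 FPKM, members higher were 1 in TIM vs AG, 0 in AGM vs AG, 6 in TIM vs TI and 9 in TIM vs AGM, and members lower were 23 in AGM vs AG, 12 in TIM vs TI and 12 in TIM vs AGM. In the same order, 20.3%, 9.58%, 8.02% and 42.1% of all tested genes were higher, and 35.7%, 18.5% and 26.1% lower. With limma-voom on recovered reads, members higher were 1, 0, 4 and 9 and members lower 23, 11 and 12 in the same comparisons. There, 15%, 5.98%, 5.2% and 38.5% of all tested genes were higher, and 35.7%, 17.8% and 25.1% lower. These scalings moved the median of all tested genes in AGM vs AG to -0.41 and -0.50 and in TIM vs AGM to 0.31 and 0.35. The distance of the members' median from it stayed between -0.21 and -0.15 in TI vs AG, between -0.15 and -0.11 in TIM vs AG and between -0.31 and -0.18 in TIM vs AGM. With only the 2 groups in the fit, members higher were 1 in TIM vs AG, 14 in AGM vs AG and 6 in TIM vs TI, and members lower were 12 in AGM vs AG and 3 in TIM vs TI. Beside these, 18.1%, 29.2% and 5.59% of all tested genes were higher, and 32.9% and 7.28% lower. When each of the 24 libraries had to reach 1 FPKM (57 members), members higher were 1 in TIM vs AG, 2 in AGM vs AG and 4 in TIM vs TI. Of the 3464 genes tested so, 19.7%, 5.92% and 8.17% were higher. Centred on the library median, 2 members were lower in AGM vs AG (2.63%, beside 17.3% of all tested genes). A pseudocount of 0.1 changed no call of a member.

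Leaving out each library in turn gave 1 to 5 members higher and 18 to 27 lower in TI vs AG, 1 to 4 and 18 to 29 in TIM vs AG, 1 to 5 and 0 to 1 in AGM vs AG, 7 to 13 and 6 to 11 in TIM vs TI, and 3 to 4 and 27 to 36 in TIM vs AGM. The 0 members lower in AGM vs AG arose without each AG library (limma, with 1 to 3 lower there at an unadjusted p below 0.05). Shares of all tested genes are not given for the fits that leave out a library. No named member past the threshold changed direction under any alternative. The cause of these shifts was not tested.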
